A study of Mus musculus with 24 samples.

Results

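The 10 genes described here are members and outputs of the circadian clock, Arntl, Per1, Per2, Per3, Ciart, Bhlhe41, Nr1d1, Nr1d2, Dbp and Tef. They were chosen by symbol out of 36333 genes listed, with earlier results of these data known. All 10 were among the 17267 genes tested, whose level averaged 0.5 TPM (transcripts scaled to gene length and library total) or more. Male C57BL6N mice aged 12 to 16 weeks were used (strain and age as labelled). The methods name C57BL/6JRj and give a narrower range of age. Brain RNA was sequenced from 1 library per mouse at 5 days post injury (dpi). Traumatic brain injury (TBI) was induced by controlled cortical impact, and mice with TBI received vehicle (control chow and saline), PLX3397 (a CSF1R inhibitor that depletes microglia, 290 mg/kg of chow), Anakinra (an IL-1 receptor antagonist, 100 mg/kg subcutaneously on the day of surgery and on following days) or PLX3397+Anakinra, with 5 mice in each group. The sham group held 4 mice that underwent anesthesia and a skin incision without craniotomy and received vehicle. All groups shared isoflurane anesthesia and carprofen analgesia at surgery. The tissue is labelled cortex, but the sections used also covered striatum, dorsal hippocampus and thalamus by the methods. The hour at which each brain was collected is not given in the sources used here. The letter B closes the animal ID of every vehicle mouse and of no other mouse, and if it marks a separate set of operations, that set cannot be told apart from vehicle treatment.

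The circadian clock is a feedback loop of transcription that runs in nearly all cells, neurons and glia included. ARNTL (BMAL1) pairs with CLOCK and binds E-boxes in the genes of its own repressors (Per, Cry, Ciart, Bhlhe40, Bhlhe41), of the nuclear receptors Nr1d1 and Nr1d2 (REV-ERBs) and of the output factors Dbp, Tef and Hlf. The REV-ERBs repress Arntl through ROR elements. In tissues with a running clock the Arntl transcript therefore peaks roughly when the transcripts of Nr1d1, Per and Dbp are low. A shift of phase tends to move Arntl and these genes in opposite directions. As their peaks do not all fall at the same hour, near a peak or trough it need not do so. Glucocorticoids, neuronal activity and body temperature also act on several of these genes, Per1 above all.

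The elements that tie the loop together were looked for in the 250 bases before each RefSeq gene start (GRCm38.p6), since the comparisons below turn on genes driven by E-boxes against a gene driven by ROR elements. Windows were at hand for 9 members, Per2 not among them. Letters searched on both strands were the E-box CACGTG, found in 6.02% of 32851 windows, the E-prime box CACGTT (3.85%) and the D-box TTANGTAA (2.06%). Also searched were the cyclic AMP response element TGACGTCA (1.55%) and TNGGTCA (9.19%). The latter is a loose form of the ROR element core that allows any base at N, where A or G is usual. Ciart held 3 E-boxes, whereas Per1, Tef and Bhlhe41 held an E-box and Nr1d1 an E-prime box. Arntl held 2 TNGGTCA matches and no E-box, and Per3 held 2 D-boxes, to which DBP and TEF bind, with 1 TNGGTCA match. A second start of Tef carried an E-box and a TNGGTCA match. All TNGGTCA matches of the members had T or C at N, so they are not shown to be ROR elements. The windows of Nr1d2 and Dbp held none of these letters. Matched letters are shown in capitals, 5′ to 3′ on the strand of the gene, for the windows with the most matches (Ciart, Per3, Arntl and the second start of Tef) and for Nr1d1 and Per1. These stretches overlap no annotated exon. Those of Ciart, Per3, Tef and Per1 lie within the annotated genes C920021L13Rik, Camta1, Tef and Per1, and those of Arntl and Nr1d1 lie in no annotated gene.
Ciart, chr3:95882255-95882356, minus strand: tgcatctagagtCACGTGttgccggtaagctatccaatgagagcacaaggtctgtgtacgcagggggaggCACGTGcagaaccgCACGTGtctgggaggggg
Arntl, chr7:113207253-113207302, plus strand: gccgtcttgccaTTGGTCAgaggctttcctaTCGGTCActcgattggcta
Per3, chr4:151044765-151044882, minus strand: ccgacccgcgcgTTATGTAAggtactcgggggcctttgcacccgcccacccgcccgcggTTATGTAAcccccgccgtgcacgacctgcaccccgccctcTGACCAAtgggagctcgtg
Tef, chr15:81811183-81811293, plus strand: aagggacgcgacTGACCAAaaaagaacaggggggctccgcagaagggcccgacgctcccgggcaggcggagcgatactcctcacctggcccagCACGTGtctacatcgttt
Nr1d1, chr11:98775388-98775417, minus strand: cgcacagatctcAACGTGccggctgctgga
Per1, chr11:69098771-69098800, plus strand: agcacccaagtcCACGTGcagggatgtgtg
A match is a description of the letters only, and binding was not measured in these mice.

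Values are TPM by the label, a unit scaled to gene length and to 1 sum per library. The methods add that CLC calls the unit CPM, so comparisons of levels between genes rest on that label. No read counts or depths were analysed. Differences are log2 differences of log2(TPM + 1) group means from limma, and p-values were adjusted by the Benjamini-Hochberg method over the whole set of 17267 genes. Marker genes shifted strongly with injury. The summed level of 8 neuronal markers (such as Rbfox3 and Snap25) was 6154 to 6489 TPM in sham and 3750 to 4614 TPM in vehicle mice, and 7 of the 8 were lower in vehicle mice, with a median log2 difference of -0.51. The summed level of 8 microglial markers (such as Csf1r and P2ry12) was 316 to 334 TPM in sham, 1201 to 1526 in vehicle, 501 to 770 in PLX3397, 1295 to 1468 in Anakinra and 458 to 612 in PLX3397+Anakinra mice. Vehicle mice J17B and J20B stood apart in fibroblast and meningeal markers, whose sum was 85.9 and 116 TPM against 559 to 693 TPM in the other vehicle mice, and J17B also in activated phagocyte markers (2506 TPM against 3823 to 5935 TPM). No neuronal or microglial marker was at 0 in all mice of a group. In bulk RNA, fewer cells of a type and less RNA per cell cannot be told apart, and the part of these shifts in the clock gene differences was not tested.

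To assess whether clock transcripts differed between injured and sham-operated brain, each TBI group was compared with sham. Most clock genes were lower after TBI, the activator Arntl together with its targets Per2, Per3, Nr1d1, Nr1d2 and Tef, whereas the repressor Bhlhe41 was higher in vehicle and Anakinra mice, Ciart was lower in vehicle mice and did not pass in the other groups, and Per1 and Dbp did not pass in any. In vehicle mice 8 of the 10 genes differed from sham, 7 lower and 1 higher, against 54.3% of all genes tested, with 27.7% of all genes tested lower and 26.6% higher. In PLX3397 mice 6 genes differed, all lower (45.2% of all genes called, 22.5% lower). In Anakinra mice 7 genes differed, 6 lower and 1 higher (54.4% called, 29.2% lower and 25.1% higher). In PLX3397+Anakinra mice 6 genes differed, all lower (38.8% called, 18.1% lower). The 10 genes had a median log2 difference of -0.26 with vehicle, -0.19 with PLX3397, -0.24 with Anakinra and -0.24 with both drugs, where the median of all genes lay between -0.04 and -0.01. The 4 comparisons share the same sham mice and are therefore not independent of each other. Over the 5 groups, limma's F-test called 7 of the 10 genes (all but Per1, Dbp and Ciart), against 51.9% of all genes. None of the differences reached a ratio of 2 between group means, which the study set as its limit.

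**Figure D1:**
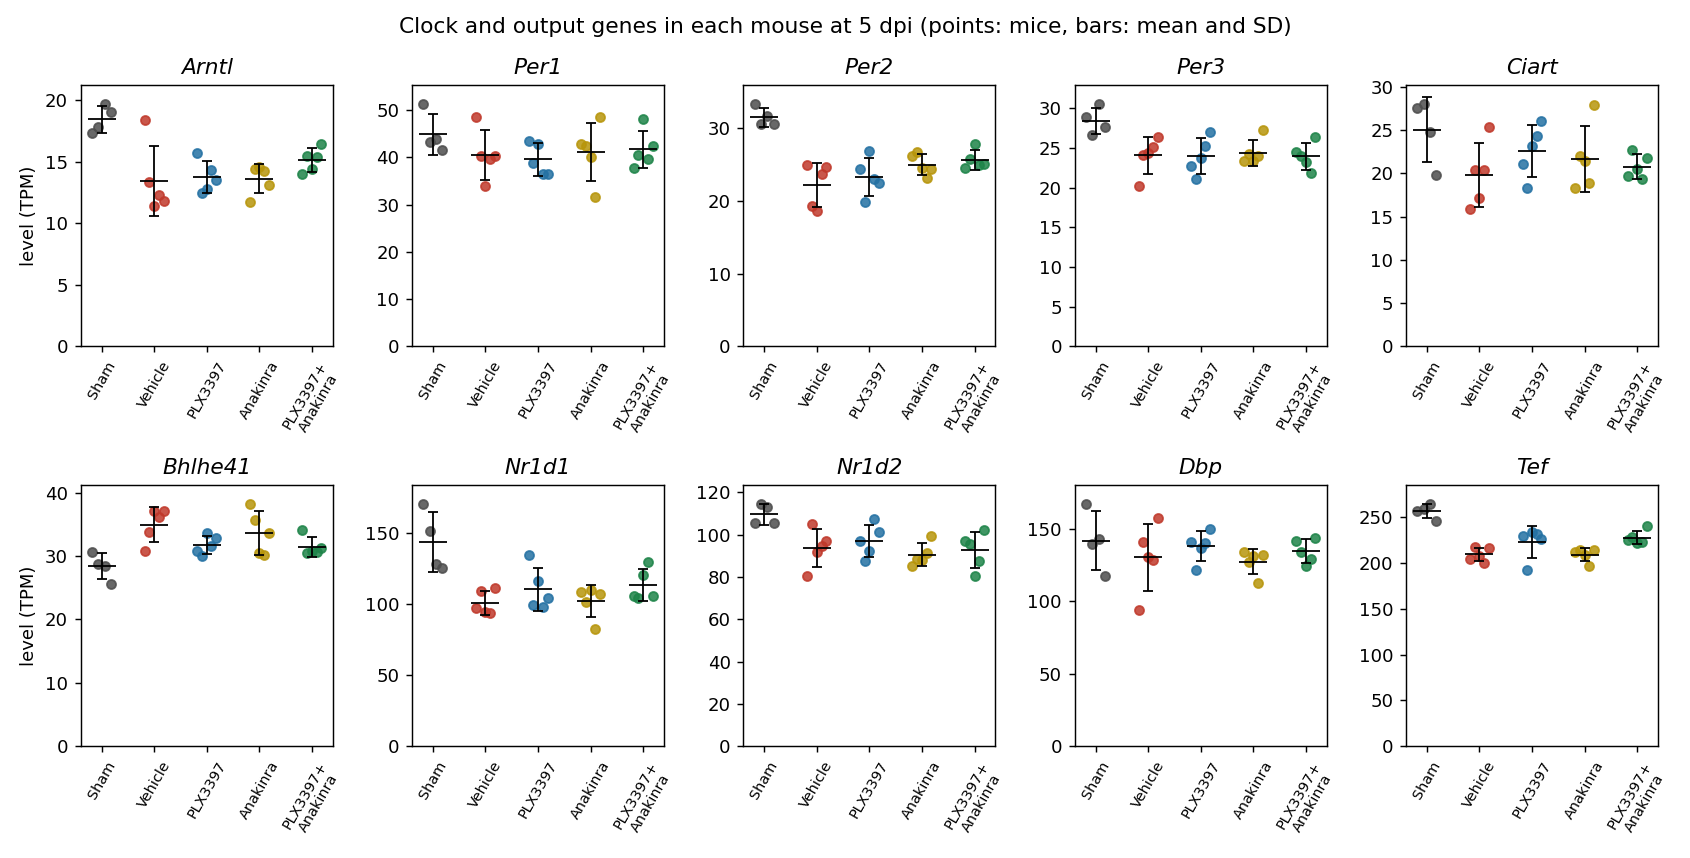
Level in TPM (y axis, from 0) of the 10 genes in every mouse, by group (x axis), with points for mice and bars for mean and SD (n = 5, sham n = 4). Per2 and Tef of all 20 TBI mice lie below the lowest sham mouse, and the vehicle mouse with 18.4 TPM of Arntl lies within the sham range. The share of all genes that separate from sham in this way was not computed.

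Values are listed below in the order of the animal IDs, which are J07, J08, J15 and J16 for sham, J01B, J17B, J18B, J19B and J20B for vehicle, J01, J02, J12, J19 and J20 for PLX3397, J05, J06, J14, J21 and J22 for Anakinra, and J03, J04, J09, J10 and J17 for PLX3397+Anakinra. Arntl, the activator of the loop, stood at 17.3, 17.8, 19.6 and 18.98 TPM in sham mice and at 18.4, 13.3, 11.4, 12.3 and 11.8 TPM in vehicle mice. Its level was 15.7, 12.4, 12.8, 14.3 and 13.5 TPM in PLX3397, 11.7, 14.4, 14.6, 14.2 and 13.1 TPM in Anakinra and 13.9, 15.5, 14.4, 15.4 and 16.4 TPM in PLX3397+Anakinra mice. All sham mice lay above every mouse of the 3 drug groups, and the vehicle group overlapped sham through J01B alone. The share of all genes tested without overlap between groups was not computed, here or for the genes below. Arntl was lower than sham by a log2 difference of -0.45 ± 0.10 (SE, adjusted p = 0.000412) in vehicle, -0.40 ± 0.10 (adjusted p = 0.00163) in PLX3397, -0.41 ± 0.10 (adjusted p = 0.000932) in Anakinra and -0.27 ± 0.10 (adjusted p = 0.0309) in PLX3397+Anakinra mice. The last call was lost without any one of J03, J09, J15 and J16 (adjusted p between 0.0588 and 0.0883).

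Among the repressors, Per2, a core partner of the cryptochromes that also answers to calcium and cyclic AMP, stood at 33.2, 30.5, 31.7 and 30.5 TPM in sham and at 24.9, 19.3, 18.6, 23.7 and 24.6 TPM in vehicle mice. Its level was 24.3, 19.8, 26.9, 23.0 and 22.4 TPM in PLX3397, 26.1, 26.6, 24.5, 23.1 and 24.4 TPM in Anakinra and 24.5, 25.7, 27.8, 24.9 and 25.0 TPM in PLX3397+Anakinra mice. No TBI mouse reached the lowest sham mouse, and the log2 difference from sham was -0.49 ± 0.08 (SE, adjusted p = 1.336e-05) in vehicle, -0.43 ± 0.08 in PLX3397, -0.32 ± 0.08 in Anakinra and -0.29 ± 0.08 in PLX3397+Anakinra mice, all past the test. Per3, a period gene that is dispensable for the core rhythm, stood at 28.8, 26.6, 30.5 and 27.6 TPM in sham and at 20.3, 24.2, 24.4, 25.1 and 26.4 TPM in vehicle mice. Its level was 22.7, 21.1, 23.7, 25.2 and 27.0 TPM in PLX3397, 23.4, 24.2, 23.3, 24.0 and 27.3 TPM in Anakinra and 24.5, 24.0, 23.2, 21.8 and 26.4 TPM in PLX3397+Anakinra mice. The vehicle and PLX3397+Anakinra mice lay below all sham mice, the other TBI groups overlapped sham through 1 mouse each, and the log2 differences of -0.21 to -0.24 passed the test in all 4 groups. Without sham mouse J15, Per3 no longer passed in Anakinra (adjusted p = 0.0705) and PLX3397+Anakinra mice (adjusted p = 0.0527).

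Per1, the period gene most readily induced by glucocorticoids and neuronal activity, stood at 51.2, 43.2, 43.8 and 41.5 TPM in sham and at 48.6, 40.3, 33.9, 39.7 and 40.4 TPM in vehicle mice. Its level was 43.5, 38.7, 42.8, 36.4 and 36.4 TPM in PLX3397, 42.8, 42.3, 40.2, 31.6 and 48.5 TPM in Anakinra and 37.8, 40.5, 48.1, 39.7 and 42.4 TPM in PLX3397+Anakinra mice. All groups overlapped, and the log2 differences from sham of -0.11 to -0.18 did not pass the test (adjusted p from 0.156 to 0.435). Ciart, a repressor of CLOCK:ARNTL, stood at 27.6, 28.0, 24.8 and 19.8 TPM in sham and at 15.8, 20.4, 17.1, 20.4 and 25.4 TPM in vehicle mice. Its level was 21.1, 18.2, 23.2, 24.3 and 26.03 TPM in PLX3397, 18.3, 22, 21.4, 18.8 and 27.8 TPM in Anakinra and 19.7, 22.6, 20.4, 19.3 and 21.8 TPM in PLX3397+Anakinra mice. Sham mouse J16 lay well inside the TBI range, and Ciart passed the test in vehicle mice (log2 difference -0.33 ± 0.13, SE, adjusted p = 0.0300) but not in PLX3397 (-0.14), Anakinra (-0.20, adjusted p = 0.181) and PLX3397+Anakinra mice (-0.25, adjusted p = 0.122). It passed in Anakinra mice without J22 (adjusted p = 0.0462) and in PLX3397+Anakinra mice without sham mouse J16 (adjusted p = 0.0350) or in a fit of the 2 groups alone (adjusted p = 0.0475). The call in vehicle mice was lost without any one of J01B, J18B, J07, J08 and J15 (adjusted p between 0.0534 and 0.101).

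Bhlhe41 (DEC2), which competes with CLOCK:ARNTL for E-boxes, was the only one of the 10 genes above sham. It stood at 30.6, 28.8, 28.5 and 25.6 TPM in sham and at 30.7, 33.7, 37.1, 36.1 and 37.1 TPM in vehicle mice. Its level was 30.8, 30.0, 33.6, 31.6 and 32.8 TPM in PLX3397, 38.2, 35.6, 30.5, 30.2 and 33.7 TPM in Anakinra and 34.2, 30.5, 30.8, 30.6 and 31.3 TPM in PLX3397+Anakinra mice. All vehicle mice lay above all sham mice, although J01B exceeded the highest sham mouse by little, and the other groups overlapped sham. The log2 difference was 0.29 ± 0.07 (SE, adjusted p = 0.000699) in vehicle and 0.24 ± 0.07 (adjusted p = 0.00456) in Anakinra mice. It was 0.16 ± 0.07 (adjusted p = 0.0557) in PLX3397 and 0.15 ± 0.07 (adjusted p = 0.0882) in PLX3397+Anakinra mice. The value in PLX3397 mice lay near the threshold and passed among genes averaging 5 TPM or more (adjusted p = 0.0481), in a fit of the 2 groups alone (0.0458), without J02 (0.0467) and without sham mouse J07 (0.0322). Whether the groups differed in Bhlhe41 is given by their own comparisons below, and the part of microglia in its level was not tested.

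The REV-ERBs, repressors of Arntl, fell in all TBI groups. Nr1d1 stood at 170.3, 151, 128 and 125 TPM in sham and at 96.8, 109, 94.1, 93.5 and 111 TPM in vehicle mice. Its level was 135, 99.5, 116, 98.1 and 104 TPM in PLX3397, 108, 101, 109.9, 82.6 and 107 TPM in Anakinra and 105, 104, 120.4, 129 and 106 TPM in PLX3397+Anakinra mice. Vehicle and Anakinra mice lay below all sham mice, whereas PLX3397 and PLX3397+Anakinra mice overlapped sham, J01 and J10 standing above the lowest sham mouse. The log2 difference was -0.50 ± 0.10 (SE, adjusted p = 0.000187) in vehicle, -0.37 ± 0.10 in PLX3397, -0.49 ± 0.10 in Anakinra and -0.34 ± 0.10 (adjusted p = 0.0102) in PLX3397+Anakinra mice, and the last was lost without sham mouse J07 (adjusted p = 0.0622). Nr1d2 stood at 105, 114, 113 and 105 TPM in sham and at 80.5, 105, 91.7, 94.6 and 96.9 TPM in vehicle mice. Its level was 96.8, 87.4, 92.4, 107 and 101 TPM in PLX3397, 85.1, 88.6, 87.8, 91.1 and 99.5 TPM in Anakinra and 97.2, 95.4, 80.6, 87.7 and 102 TPM in PLX3397+Anakinra mice. Only PLX3397 mice overlapped sham, through J19, and the log2 difference was -0.23 ± 0.07 (SE) in vehicle, -0.18 ± 0.07 in PLX3397, -0.28 ± 0.07 in Anakinra and -0.24 ± 0.07 in PLX3397+Anakinra mice. In PLX3397 mice the call (adjusted p = 0.0462) was lost without any one of 6 mice (adjusted p between 0.0505 and 0.132), whereas it passed in the other groups.

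The output factors of the PAR bZIP family differed from each other. Tef, which had the highest level of the 10 genes, stood at 257, 259, 265 and 246 TPM in sham and at 205, 218, 208, 200.4 and 217 TPM in vehicle mice. Its level was 229, 193, 234, 232 and 227 TPM in PLX3397, 212, 214, 209, 197 and 214 TPM in Anakinra and 226, 228, 222, 224 and 240.2 TPM in PLX3397+Anakinra mice. All 20 TBI mice lay below all sham mice, with log2 differences of -0.29 ± 0.05 (SE, adjusted p = 1.001e-05) in vehicle, -0.21 ± 0.05 in PLX3397, -0.29 ± 0.05 in Anakinra and -0.17 ± 0.05 in PLX3397+Anakinra mice, all past the test. Dbp, the classical direct readout of CLOCK:ARNTL activity, stood at 167, 139.7, 143 and 117 TPM in sham and at 94.1, 141, 130.4, 128 and 157 TPM in vehicle mice. Its level was 141, 122, 136, 140.3 and 150.2 TPM in PLX3397, 134, 127, 131, 113 and 132 TPM in Anakinra and 142, 134, 124, 129 and 143 TPM in PLX3397+Anakinra mice. Every TBI group overlapped sham, and the log2 differences of -0.13 in vehicle, -0.03 in PLX3397, -0.15 in Anakinra and -0.07 in PLX3397+Anakinra mice did not pass the test (adjusted p from 0.244 to 0.830). The 95% interval for Dbp in vehicle against sham ran from -0.34 to 0.08. Without vehicle mice J17B and J20B, a setting chosen after seeing the data, Dbp passed in vehicle mice (log2 difference -0.27 ± 0.10, SE, adjusted p = 0.0330), and 9 of the 10 genes were then called against 52.2% of all genes. All but Per1 were among them.

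**Figure D2:**
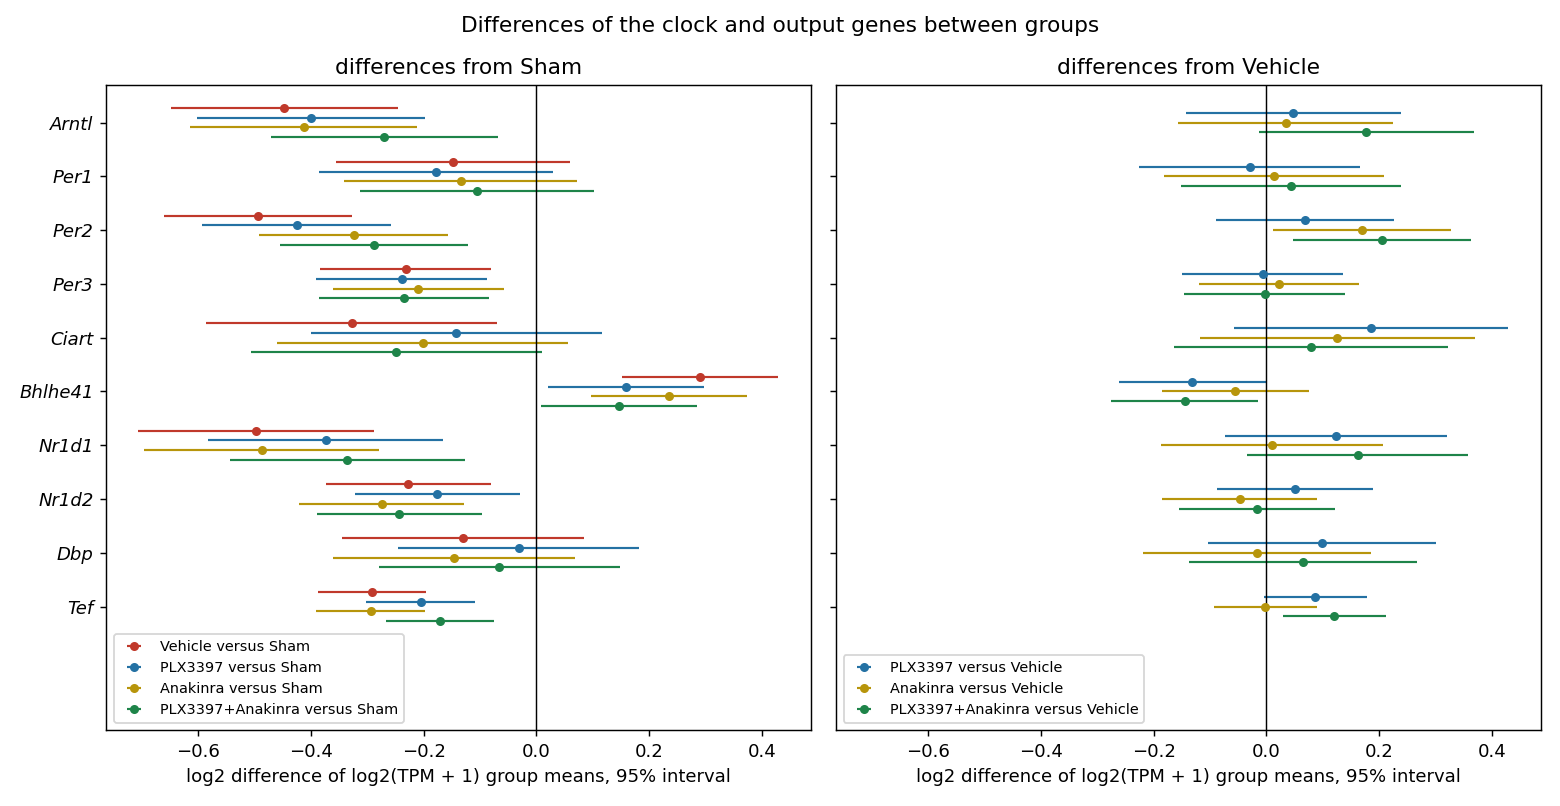
Log2 differences (x axis) with 95% intervals of the 10 genes (y axis) for each TBI group against sham (left) and each drug group against vehicle (right). Intervals of Arntl, Per2, Per3, Nr1d1, Nr1d2 and Tef lie below 0 in all 4 comparisons with sham, whereas most intervals against vehicle cross 0.

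To examine whether the groups stood at different phases of the clock, Arntl was set beside the genes that peak roughly opposite to it. Against sham, Arntl and the opposite-phase genes Per2, Per3 and Nr1d1 were lower together in all 4 TBI groups. The ratio of Nr1d1 to Arntl was 7.86 ± 1.61 (SD, n = 4) in sham and 7.75 ± 1.54 (n = 5) in vehicle mice. It was 8.04 ± 0.84 in PLX3397, 7.56 ± 1.27 in Anakinra and 7.51 ± 0.90 in PLX3397+Anakinra mice, so that the group means differed by less than the spread between mice. The ratio of Per2 to Arntl was 1.71 ± 0.15 in sham, 1.69 ± 0.31 in vehicle, 1.70 ± 0.23 in PLX3397, 1.85 ± 0.23 in Anakinra and 1.70 ± 0.16 in PLX3397+Anakinra mice, again within the spread. The ratio of Dbp to Arntl was 7.75 ± 1.46 in sham and 10.2 ± 3.07 in vehicle mice, where it ran from 5.12 in J01B to 13.4 in J20B. It was 10.1 ± 0.84 in PLX3397, 9.44 ± 1.34 in Anakinra and 8.93 ± 0.70 in PLX3397+Anakinra mice. The vehicle mice overlapped the sham mice (6.18 to 9.67) through J01B alone, the other 4 standing at 10.4 to 13.4, and in PLX3397 mice the mean exceeded that of sham by more than either SD. The ranges of PLX3397 (8.98 to 11.1), Anakinra (7.92 to 11.4) and PLX3397+Anakinra mice (8.42 to 10.2) overlapped sham. The ratios were not tested. As no hour of collection is given, a difference in time of day between groups and an effect of injury on Arntl and its targets cannot be told apart from these levels alone.

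**Figure D3:**
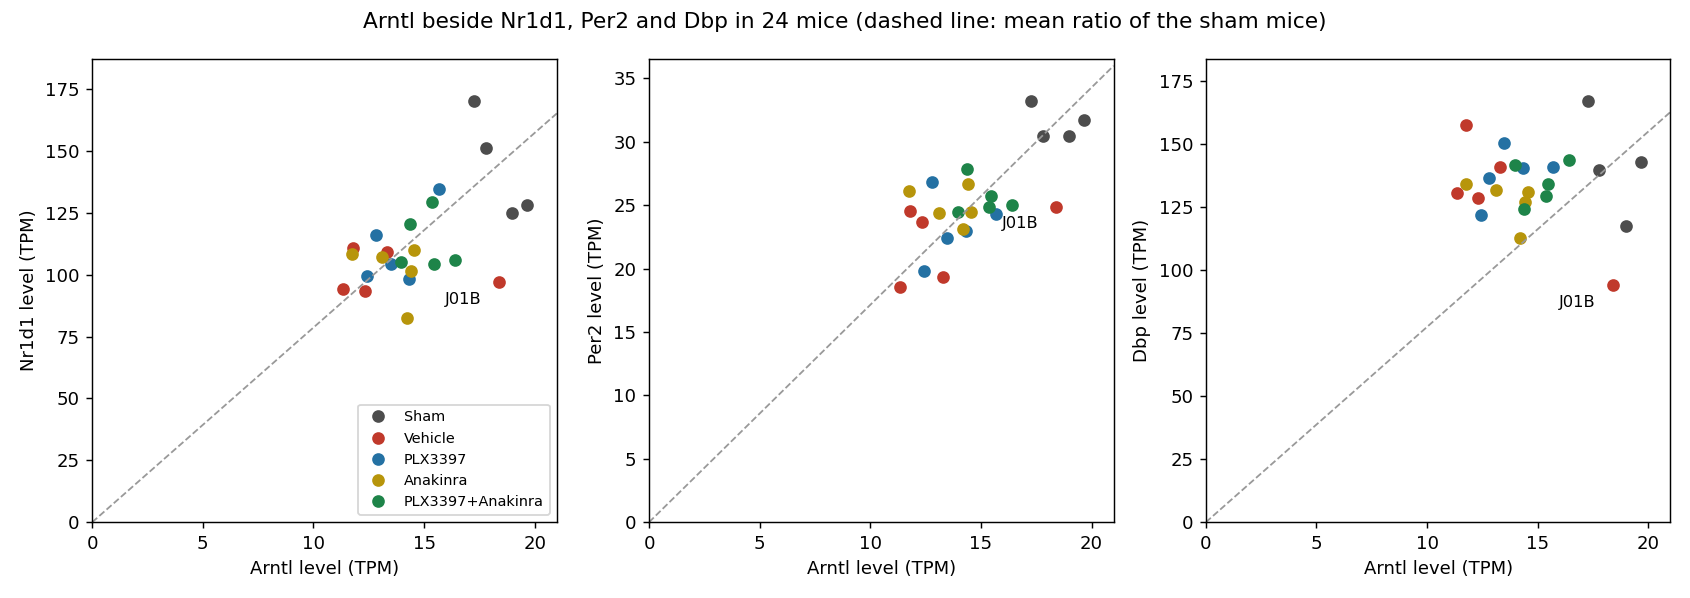
Level of Nr1d1, Per2 and Dbp (y axes, TPM) against Arntl (x axis, TPM) in 24 mice, coloured by group, with the mean ratio of the sham mice as a dashed line. For Per2 all 20 TBI mice lie below the sham mice, for Nr1d1 the mice J01 and J10 overlap them, and vehicle mouse J01B lies at 18.4 TPM of Arntl with the lowest Dbp, 94.1 TPM.

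To determine whether treatment altered clock transcripts, the TBI groups were compared with each other. None of the 10 genes passed the test in any of the 6 comparisons. Against vehicle, limma called 0 of the 10 genes in PLX3397 (9.89% of all genes called), 0 in Anakinra (0.116%) and 0 in PLX3397+Anakinra mice (17.5%). It called 0 in PLX3397+Anakinra against PLX3397 (0.151%), 0 in PLX3397+Anakinra against Anakinra (12.8%) and 0 in PLX3397 against Anakinra (6.69%), and 0 for the interaction of the drugs (0%). At an unadjusted p below 0.05 the counts were 1 (Bhlhe41) in PLX3397, 1 (Per2) in Anakinra and 3 (Per2, Tef and Bhlhe41) in PLX3397+Anakinra mice against vehicle. Between drug groups the only such gene was Tef in PLX3397+Anakinra against Anakinra, and there was none for the interaction. The comparisons with vehicle share the vehicle mice.

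The genes with an unadjusted p below 0.05 in PLX3397+Anakinra mice, and Arntl, had the following values. Per2 was 25.6 ± 1.34 TPM (SD, n = 5) in PLX3397+Anakinra against 22.2 ± 3.03 TPM in vehicle mice (log2 difference 0.21 ± 0.08, SE, adjusted p = 0.0658). Tef was 228 ± 7.32 TPM against 209.5 ± 7.52 TPM, without overlap between the 2 groups (log2 difference 0.12 ± 0.04, SE, adjusted p = 0.0608). Bhlhe41 was 31.5 ± 1.55 TPM against 35.0 ± 2.72 TPM (log2 difference -0.14 ± 0.06, SE, adjusted p = 0.121), and Arntl was 15.1 ± 0.97 TPM against 13.4 ± 2.86 TPM (log2 difference 0.18 ± 0.09, SE, adjusted p = 0.202). The group means of these 4 genes in PLX3397+Anakinra mice lay between those of vehicle and sham, but Per2, Tef and Bhlhe41 had been picked for their difference from vehicle. Means of Per1, Nr1d1, Dbp and Ciart also lay between. Those of Nr1d2 (92.6 TPM against 93.7 TPM in vehicle) and Per3 (23.98 against 24.08 TPM) did not. Of the other differences from vehicle, Ciart was at 0.19 in PLX3397 (adjusted p = 0.377), Per2 at 0.17 in Anakinra (adjusted p = 0.363) and Nr1d1 at 0.16 in PLX3397+Anakinra mice (adjusted p = 0.269). Across the 6 comparisons among TBI groups, the bounds of the separate 95% intervals ran from -0.09 to 0.21 for Tef. This range, lowest to highest bound, was the narrowest of the 10 genes, and that of Ciart (-0.35 to 0.43) was the widest.

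The count in PLX3397+Anakinra mice depended on vehicle mouse J01B. Without it, 3 of the 10 genes passed against vehicle, against 18.8% of all genes, namely Arntl (log2 difference 0.29 ± 0.07, SE, adjusted p = 0.00641), Per2 (0.25 ± 0.08, adjusted p = 0.0295) and Bhlhe41 (-0.19 ± 0.06, adjusted p = 0.0372). Arntl of the other 4 vehicle mice was 12.2 ± 0.85 TPM (SD). Without J17B, Tef alone passed (adjusted p = 0.0441), and without J20B, Per2 alone passed (adjusted p = 0.0420). Without both, Tef alone passed (log2 difference 0.16, adjusted p = 0.0368), against 17.6% of all genes. Tef also passed in PLX3397 mice against vehicle (log2 difference 0.14, adjusted p = 0.0136) and against Anakinra (0.14, adjusted p = 0.0149) once PLX3397 mouse J02, with 193 TPM the lowest of all mice, was left out. Summed neuronal markers moved the same way, with 4654 to 4926 TPM in PLX3397+Anakinra and 4263 to 5129 TPM in PLX3397 against 3750 to 4614 TPM in vehicle mice, and their part in these differences was not tested.

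Within groups, 8 of the 10 clock genes varied more between mice than the median gene did. The SD of log2 values around the group means was 0.20 for Ciart, 0.17 for Dbp, 0.17 for Nr1d1, 0.16 for Per1 and 0.15 for Arntl, which placed them between the 82.4th and the 92.4th percentile of 12523 genes that averaged 5 TPM or more. Tef varied least, with an SD of 0.07 at the 12.5th percentile, where the median of these genes was 0.10. Vehicle mouse J01B stood apart in this respect. Among the 20 TBI mice it held the highest Arntl (18.4 TPM) and Per1 (48.6 TPM) and the lowest Per3 (20.3 TPM), Nr1d2 (80.5 TPM), Dbp (94.1 TPM) and Ciart (15.8 TPM). Its neuronal (4240 TPM) and microglial (1259 TPM) sums lay within those of the other vehicle mice. Of the vehicle mice it held the highest summed striatal (1621 TPM) and thalamic markers (180.5 TPM) and the lowest astrocyte (4509 TPM) and oligodendrocyte markers (5926 TPM), and its sum of the cold-inducible genes Cirbp and Rbm3 (136 TPM) was the lowest of all 24 mice. The part of these in its clock gene levels was not tested.

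If mice of one group differed in phase, Arntl would tend to run against its opposite-phase genes from mouse to mouse. With group means removed, 1 of 9 genes did so by the permutation test. Bhlhe41 was lower in mice with more Arntl (24 mice, Pearson r = -0.68, Spearman rho = -0.62, permutation within groups p = 0.00119 and 0.00301). The relation remained without the 2 mice farthest from the median of Arntl, J01B and J18B (r = -0.57), and in the TBI mice alone (r = -0.70), but its slope in limma did not pass over all genes (adjusted p = 0.0784). Of 12522 other genes that averaged 5 TPM or more, Bhlhe41 ranked 31 from the most opposed to Arntl. Dbp ran the same way (r = -0.53, rho = -0.20, permutation p = 0.0890 and 0.379), but r was -0.11 without J01B and J18B, so that this value rests on J01B. Nr1d1 (r = -0.08), Per2 (r = 0.24) and the other genes showed no relation that passed (permutation p from 0.220 to 0.735). In limma, 0 of the 9 slopes on Arntl passed, against 0.185% of all genes, and 2 of them, those of Bhlhe41 and Dbp, had an unadjusted p below 0.05.

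**Figure D4:**
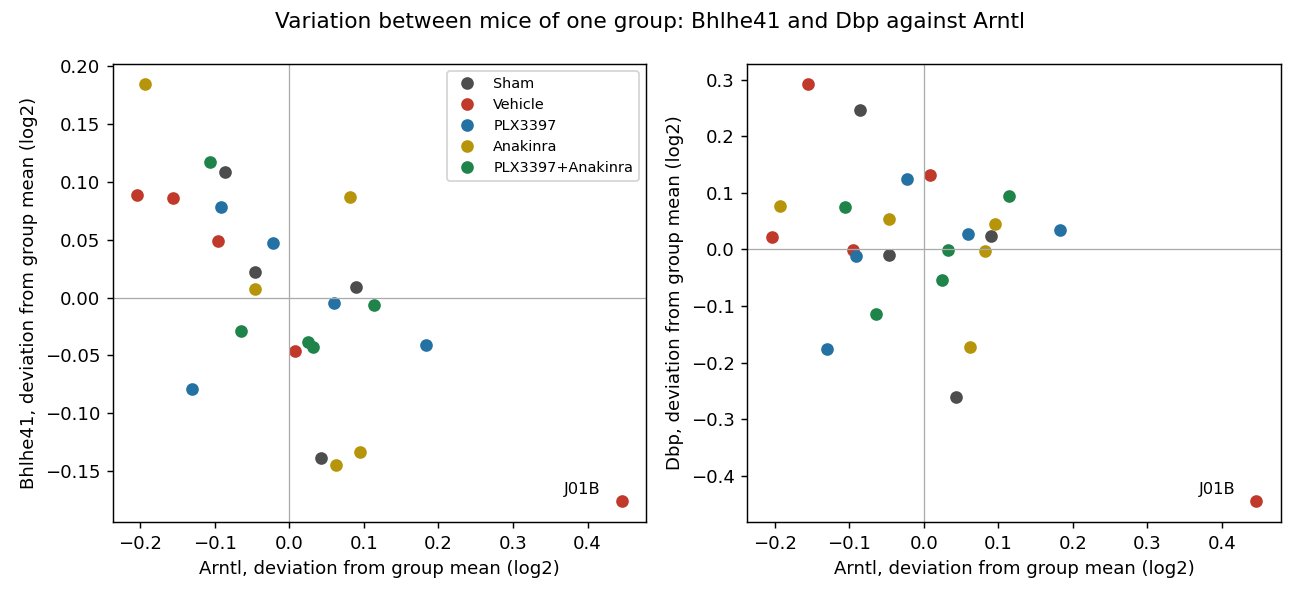
Deviation from the group mean on the log2 scale of Bhlhe41 (left) and Dbp (right) against that of Arntl (x axes) in 24 mice coloured by group. Bhlhe41 falls as Arntl rises (r = -0.68), whereas the slope for Dbp rests on vehicle mouse J01B.

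The animal number is the one label that could follow the order of handling, and what it stands for is not stated. Over the 19 mice whose number carries no letter, Per3 rose with the number (r = 0.65, rho = 0.61, permutation within groups p = 0.0106 and 0.0185), and r was 0.49 without J01 and J02. Nr1d2 (r = 0.49, permutation p = 0.0569) and Nr1d1 (r = -0.42, permutation p = 0.106) did not pass, nor did the remaining genes. Without J01 and J02, r moved from -0.32 to -0.66 for Bhlhe41, from -0.15 to -0.57 for Per2 and from 0.27 to 0.54 for Arntl. For the genes other than these and Per3 it then lay between -0.41 and 0.41. The values without J01 and J02 were not tested. In limma 0 of the 10 slopes on animal number passed, as did 0% of all genes (Per3 adjusted p = 0.318), and 2 of them, those of Per3 and Nr1d2, had an unadjusted p below 0.05. Altogether 19 relations were computed for Arntl and animal number, and the limma values are those adjusted for multiple testing.

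Several of the genes varied together from mouse to mouse, and others did not. As a description over 24 mice with group means removed, r was 0.73 for Per3 with Nr1d2, 0.71 for Dbp with Ciart, 0.71 for Per3 with Ciart, 0.69 for Dbp with Bhlhe41 and 0.69 for Per3 with Dbp. Without J01B these values were 0.64, 0.68, 0.66, 0.59 and 0.52. Per1 varied with Per2 (r = 0.61) and with Nr1d1 (r = 0.60), and Dbp with Tef (r = 0.56). No such relation was seen between Nr1d1 and Nr1d2 (r = -0.12) or Nr1d1 and Per3 (r = -0.13), and Nr1d2 ran weakly against Per2 (r = -0.30) and Per1 (r = -0.31). All values of a mouse come from 1 library and share its composition. Of 12522 other genes that averaged 5 TPM or more, those closest to Dbp were Vgll4 (r = 0.71), Ciart (0.71), Mterf3 (0.70), Uri1 (0.70) and Bhlhe41 (0.69), and Per3 ranked 8. Those most opposed to Dbp were Slc6a13 (r = -0.70), Rpusd4, Plat, Endod1 and Rassf5. For Arntl the closest genes were Usp11 (r = 0.86), Uqcc1, Ets2, Tsc1 and Lhx6, none of them a core clock gene, and the most opposed were Npnt (r = -0.80), Pxmp2, Metrn, Olfml2b and Bloc1s1. Bhlhe41 lay closest to Gal3st1 (r = 0.80), an enzyme of myelin sulfatide synthesis, and to Klk6, a protease of oligodendrocytes, followed by Pth1r, Nfia and Mpzl1. It was most opposed to Las1l (r = -0.79), Kat7, Tspyl4, Gm34267 and Fstl5.

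The other genes of the clock pathway were examined as a list of 21 genes (partners, cryptochromes, RORs, kinases and ubiquitin ligases of the loop, further outputs), all of which entered the tests. In vehicle mice 12 of the 21 were lower than sham and 2 higher, with a median log2 difference of -0.19, where 27.7% of all genes were lower and 26.6% higher. In PLX3397 mice 10 were lower and 2 higher (22.5% and 22.7% of all genes), in Anakinra mice 14 lower and 2 higher (29.2% and 25.1%), and in PLX3397+Anakinra mice 9 lower and 1 higher (18.1% and 20.7%). The smallest adjusted p-values in vehicle mice belonged to the repressor Cry2 (133 ± 7.49 TPM in sham, n = 4, and 92.9 ± 5.70 in vehicle, n = 5, SD, log2 difference -0.52), the E-box repressor Bhlhe40 (116 ± 5.06 and 85.2 ± 3.09 TPM, log2 difference -0.44) and Btrc, a ubiquitin ligase subunit that acts on PER proteins (74.5 ± 2.46 and 55.6 ± 4.33 TPM, log2 difference -0.42). Bhlhe40 thus was lower where its paralog Bhlhe41 was higher. The genes above sham in vehicle mice were Timeless, a replication fork protein in mammals (log2 difference 0.56), and Nono, an RNA-binding partner of PER proteins (0.14). Clock, the partner of Arntl, did not pass (34.3 ± 2.83 TPM in sham and 32.8 ± 3.02 in vehicle, log2 difference -0.06, adjusted p = 0.457).

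Against vehicle, 4 of the 21 genes differed in PLX3397+Anakinra mice, a share near the 17.5% of all genes called, and all 4 were higher (7.88% of all genes higher), namely Cry2 (log2 difference 0.18, adjusted p = 0.0131), Bhlhe40 (0.17, adjusted p = 0.0188), Rora (0.28, adjusted p = 0.0252), the activator at ROR elements, and Btrc (0.16, adjusted p = 0.0301). In PLX3397 mice Rora alone passed (0.27, adjusted p = 0.0489), where 9.89% of all genes were called and 3.23% were higher, and in Anakinra mice 0 of 21 did by limma (0.116% of all genes). The level of Rora was 17.9 ± 1.67 TPM (SD, n = 5) in vehicle and 25.1 ± 1.78 TPM (n = 4) in sham mice. It was 21.8 ± 2.37 TPM with PLX3397, 18.8 ± 3.19 TPM with Anakinra and 21.9 ± 0.65 TPM with both drugs (n = 5 each).

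**Figure D5:**
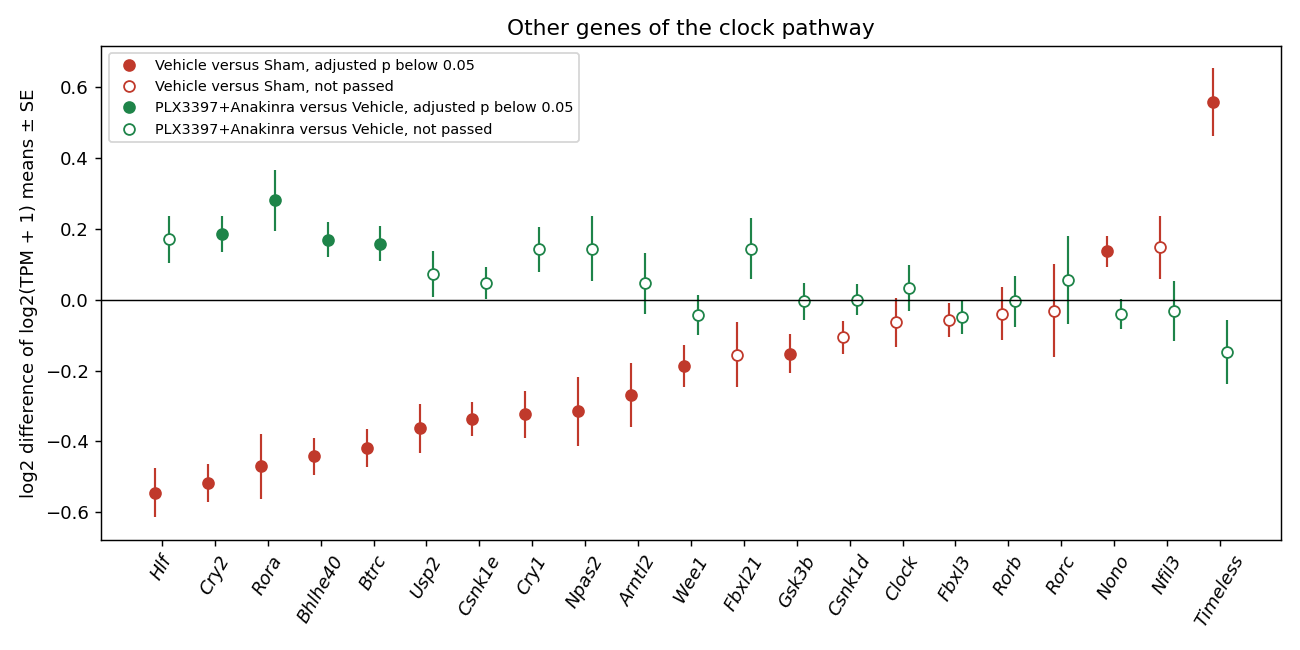
Log2 difference ± SE (y axis) of 21 other clock pathway genes (x axis, ordered by the first comparison) in vehicle against sham and in PLX3397+Anakinra against vehicle, filled where the adjusted p was below 0.05. Of the genes, 12 were lower and 2 higher in vehicle than in sham, and 4 were higher in PLX3397+Anakinra than in vehicle.

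Lists of genes that follow signals known to act on the clock held genes called in both directions, against 27.7% of all genes lower and 26.6% higher in vehicle mice. Of 10 glucocorticoid responsive genes, 6 were higher and 3 lower in vehicle mice than in sham, among them Mt2 (log2 difference 1.497), Zbtb16 (-1.03) and Cdkn1a (0.99). Of 12 immediate early genes, which follow neuronal activity, 4 were higher and 4 lower, among them Egr1 (-0.95), Fosb (-0.62) and Nr4a1 (-0.79). Of the cold-inducible RNA-binding genes Cirbp was lower (-0.44) and Rbm3 did not pass (-0.02). Of 6 markers of the suprachiasmatic nucleus, the central pacemaker, 3 passed the filter on low values, and Vip (-0.54), which cortical interneurons also make, and Grp (-0.46) were lower in vehicle mice while Avp did not pass. The methods do not name this nucleus among the tissue taken, so whether any of these transcripts came from it is not known. Among other cell type lists, 7 of 8 astrocyte, 8 of 8 activated phagocyte, 5 of 6 oligodendrocyte, 4 of 5 endothelial and 5 of 5 fibroblast and meningeal markers were higher in vehicle mice. Of 5 striatal markers 0 passed and of 4 thalamic markers 2 were lower. The relation of these lists to the clock genes was not tested.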

How the data were processed

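Total RNA of 24 mice was sequenced after poly(A) enrichment (paired-end reads), 1 library per mouse. The authors processed the reads in CLC Genomics Workbench (version 21.0.5, annotation mm10, GRCm38 per the labels) and deposited TPM per gene, without pooling. The full table was used. A rounded copy and a filtered table, with columns of p and F values from the authors' own tests, were not used. Depth per library is not given in the sources used here, so precision is set by the variation among the 5 mice of a group (4 in sham).

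Groups were taken from the treatment label. TPM were analysed as log2(TPM + 1) in limma 3.58.1 (R 4.3.3) for genes averaging 0.5 TPM or more, with 1 mean per group, all 24 libraries in 1 fit and a variance trend, two-sided, and passed at a Benjamini-Hochberg adjusted p below 0.05 over all genes tested. The step was tested on simulated data. The study called genes by t-tests with limits on fold and difference, and that rule served as an alternative. Other alternatives were another pseudocount, filters, a rescaling, no variance trend, fits of the 2 groups compared, a replicate block, leaving out each mouse and, chosen after seeing the data, leaving out vehicle mice J17B and J20B. Correlations used 100000 permutations within groups. The 10 members were all named. Of each list up to 3 genes with the smallest adjusted p were named, and 5 genes at each end of the correlations with Dbp, Arntl and Bhlhe41. Clock, Rora in all groups and genes in counts of 5 or fewer were named after their values were seen. The members and lists were chosen with earlier results of these data known. Promoter windows came from RefSeq (GRCm38.p6) and matched 9 of 10 members. Exon overlap was taken from GENCODE annotation.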

Additional observations from a re-analysis of the deposited data

Results flagged for a closer look

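Of 50 groups of 5 or 4 mice examined (10 genes in 5 groups), 4 held 1 mouse whose gap to its nearest neighbour was large against the range of the group, where chance gives about 1 in 20 groups. Vehicle mouse J01B had the highest Arntl of its group, 18.4 TPM against 13.3 TPM in the next mouse. PLX3397 mouse J02 had the lowest Tef of its group, 193 TPM against 227 TPM in the next mouse. Anakinra mouse J22 had the highest Per3 of its group, 27.3 TPM against 24.2 TPM in the next mouse. PLX3397+Anakinra mouse J03 had the highest Bhlhe41 of its group, 34.2 TPM against 31.3 TPM in the next mouse.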

How the results depend on the processing

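Precision is limited by 5 mice per group and 4 in sham, by unknown depth and hours of collection, and by bulk tissue whose cell composition shifted with injury. Counts of the 10 genes called were close to the reported ones under another pseudocount, other filters on low values, a rescaling and no variance trend, and no called difference changed direction. Without a filter on low values, which raised the number of genes tested, Ciart in vehicle (adjusted p = 0.0547), Nr1d2 in PLX3397 (0.0775) and Arntl in PLX3397+Anakinra mice (0.0540) no longer passed against sham. The rule of the study (unadjusted p, ratio of means above 2 and difference above 4 TPM) called 0 genes in each of the 4 comparisons with sham, since no ratio exceeded 2. With only the 2 groups compared in the fit, 1 gene (Tef, adjusted p = 0.0494) passed in PLX3397+Anakinra against Anakinra, and against sham Ciart was lost in vehicle (0.0503) and gained in PLX3397+Anakinra mice (0.0475) and Bhlhe41 was gained in PLX3397 mice (0.0458). The cause was not tested. Leaving out 1 mouse at a time gave 0 to 3 genes in PLX3397+Anakinra against vehicle, 0 to 1 in PLX3397 against vehicle, 0 to 1 in PLX3397 against Anakinra, 7 to 8 in vehicle, 5 to 7 in PLX3397, 6 to 8 in Anakinra and 4 to 6 in PLX3397+Anakinra mice against sham, and 5 to 7 over the 5 groups. Without both J17B and J20B, a setting added after seeing the data, 9 genes passed in vehicle mice against sham, 0 in PLX3397 and 0 in Anakinra mice against vehicle and 1 in PLX3397+Anakinra mice against vehicle, and 8 over the 5 groups. With a replicate block for the 3 animal numbers that PLX3397 and vehicle mice share once the letter B is dropped, 0 genes passed, as without it. Deviations of same-numbered mice from their group means correlated over all genes with r = 0.17, -0.13 and -0.07. With only 3 such pairs, whether these numbers pair the mice cannot be decided.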
